A study of Mus musculus with 6 samples.

Results

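The E2F and DP transcription factors were followed in mouse embryonic fibroblasts that lack Ing1. The members are E2f1 to E2f8, Tfdp1 and Tfdp2, 10 of the 18069 genes with an annotated symbol on the array. They were taken as every transcript probe whose annotated symbol is one of these names and no other, which gave 10 probes of 34967, 1 for each gene. Of 6 primary cultures, C4, C3 and B1 came from embryos in which a gene trap cassette disrupts Ing1, and H2, H3 and I2 came from littermates with the wild-type locus. Each culture was an early-passage preparation from its own embryo, and its total RNA was hybridised to its own CodeLink whole-genome array with a biotin label. The labels give neither the embryos' age nor the number of trapped alleles, and name no treatment. The comparison asked which genes respond to the loss of Ing1, a reader of a histone mark that works with Sin3-HDAC complexes.

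E2F proteins bind promoters of genes needed for DNA synthesis and division, most of them as dimers with a DP protein. E2F1, E2F2 and E2F3 are grouped as activators. E2F4 and E2F5 act mainly as repressors with the pocket proteins, the family of the retinoblastoma protein. E2F6 represses through Polycomb-type complexes, and the atypical E2F7 and E2F8 repress without a DP partner. Fibroblasts that enter the cell cycle release the activators from the retinoblastoma protein once cyclin-dependent kinases phosphorylate it.

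Several E2F genes carry E2F sites of their own, so the promoters of members were searched for the 8-base E2F consensus. The forms searched on both strands were TTTCCCGC, TTTCGCGC, TTTGCCGC and TTTGGCGC, in RefSeq windows (GRCm38.p6) of 250 bases before to 50 bases after each annotated start. Windows were found for 8 members, all but E2f4 and E2f5. A match was present in at least 1 window of 4 of these 8 genes, E2f2, E2f3, E2f7 and Tfdp1, against 2.6% of 27025 genes with a window. The 4 windows are shown because they include E2f2 and Tfdp1, the members that passed the genotype test, and the capitals mark the matching bases. The windows lie at chr4:136172024-136172323 on the plus strand for E2f2, chr13:29986014-29986313 on the minus strand for E2f3, chr10:110745189-110745488 on the plus strand for E2f7 and chr8:13338501-13338800 on the plus strand for Tfdp1.
E2f2: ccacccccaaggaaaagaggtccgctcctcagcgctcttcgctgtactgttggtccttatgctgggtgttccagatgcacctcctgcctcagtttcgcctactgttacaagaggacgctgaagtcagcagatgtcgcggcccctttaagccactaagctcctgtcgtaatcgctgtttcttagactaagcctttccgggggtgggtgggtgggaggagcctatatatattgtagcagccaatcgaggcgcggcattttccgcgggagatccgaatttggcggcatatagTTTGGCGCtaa
E2f3: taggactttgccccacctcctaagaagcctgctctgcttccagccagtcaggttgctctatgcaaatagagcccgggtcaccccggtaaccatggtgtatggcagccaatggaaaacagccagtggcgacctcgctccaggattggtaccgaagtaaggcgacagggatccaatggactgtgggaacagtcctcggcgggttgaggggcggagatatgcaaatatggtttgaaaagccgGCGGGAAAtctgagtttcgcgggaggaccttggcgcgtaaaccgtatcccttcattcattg
E2f7: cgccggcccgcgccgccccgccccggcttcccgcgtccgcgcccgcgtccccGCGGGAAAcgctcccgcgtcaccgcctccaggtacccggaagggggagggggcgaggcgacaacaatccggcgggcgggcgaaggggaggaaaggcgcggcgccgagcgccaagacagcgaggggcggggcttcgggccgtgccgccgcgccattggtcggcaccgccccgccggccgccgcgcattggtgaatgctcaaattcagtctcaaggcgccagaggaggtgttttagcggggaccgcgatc
Tfdp1: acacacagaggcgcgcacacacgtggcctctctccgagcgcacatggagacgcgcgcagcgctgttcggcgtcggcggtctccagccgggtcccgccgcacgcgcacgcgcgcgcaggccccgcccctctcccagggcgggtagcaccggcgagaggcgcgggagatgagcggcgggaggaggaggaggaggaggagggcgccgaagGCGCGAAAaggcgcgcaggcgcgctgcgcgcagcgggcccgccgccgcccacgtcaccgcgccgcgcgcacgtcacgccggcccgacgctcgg
The match begins 40 bases into the transcribed side in E2f2, and 11 bases upstream of the start in E2f3, 198 in E2f7 and 43 in Tfdp1. The Tfdp1 match is also in that gene's other window. No form of the motif was found in the windows of E2f1, E2f6, E2f8 and Tfdp2. The E2f1, E2f8 and Tfdp2 windows belong to starts 466, 477 and at least 62459 bases inside the annotated gene, so a more upstream start was not searched. A match is a stretch of letters and not a measured binding site.

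All 10 member probes carried a good quality flag on all 6 arrays, so none passed a filter through 1 genotype alone. Their spot means were 1.58 to 11.8 times the local background, the lowest ratio being that of E2f2 in H3. Values are in units of each array's median transcript probe, and brightness of different probes was not compared. The targeted gene followed the labels: Ing1 read 1.38, 0.93 and 1.39 in C4, C3 and B1, against 11.7, 11.4 and 11.1 in H2, H3 and I2. Wild-type array H3 resembled the deficient arrays (mean Pearson r 0.968 over 19520 probes) as much as the other wild-type arrays (0.967), so several results are also given without it. Over all 19575 tested probes limma called 6.57% at an adjusted p under 0.05, 4.94% higher and 1.63% lower in deficient cells, so that 75.2% of the calls were higher. That share was 60.8% after quantile normalization and 64.4% without H3. Fibroblast genes were bright on every array, the 12 listed markers summing to 1090 to 1180 units in deficient and 945 to 1140 in wild-type cultures. Of these 12, 2 were called higher by limma, the matrix gene Lum (0.84 ± 0.19) and the surface marker gene Thy1 (0.89 ± 0.22). An unadjusted limma p under 0.05 was found for 5 of them, against 26.2% of all tested probes, and their median log2 difference was 0.41. The part of these markers in the results was not tested.

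**Figure D1:**
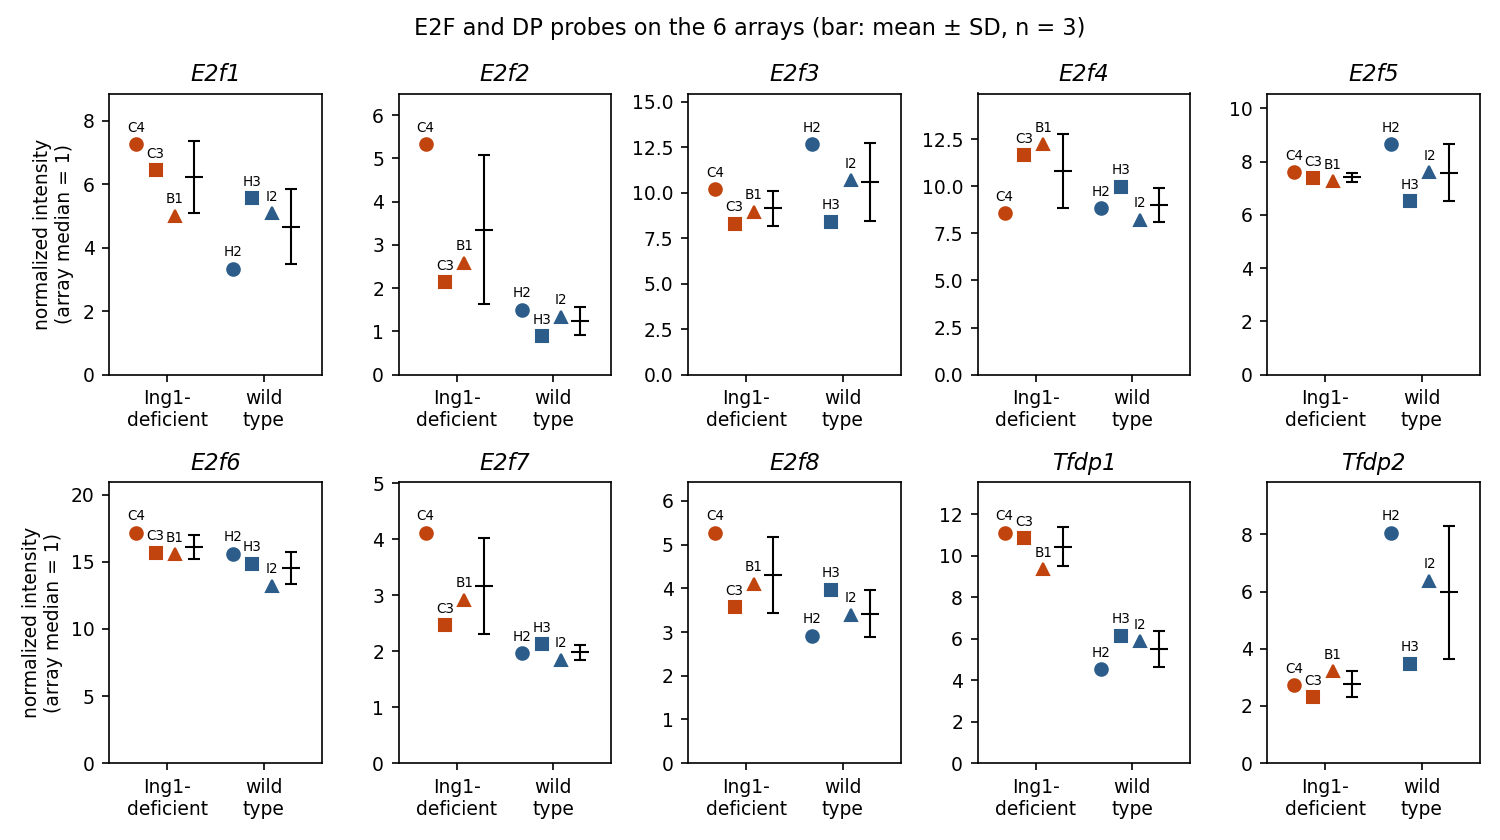
Normalized intensity (array median = 1) of the 10 E2F and DP probes in the Ing1-deficient (left, red) and wild-type (right, blue) cultures, with points labelled by culture and bars giving the mean ± SD of 3 arrays. The genotypes do not overlap for E2f2, E2f7, Tfdp1 and Tfdp2, and culture C4 has the highest reading of E2f1, E2f2, E2f6, E2f7, E2f8 and Tfdp1.

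E2f2 and Tfdp1 were the members that rose in deficient cells, and the other 8 of 10 missed the adjusted threshold. The 2 calls are 20% of the members beside 6.57% of all tested probes, a difference of 1 or 2 genes in so short a list. The genotypes did not overlap for 4 members (40%), 3 higher and 1 lower, against 31.2% of all tested probes (20% higher and 11.2% lower). The same 4 had an unadjusted p under 0.05, against 26.2% of all tested probes (17% higher and 9.21% lower). The median log2 difference over the 10 members was 0.29, and that of all tested probes was 0.017.

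E2f2, an activator that drives entry into S phase, was the member with the largest rise. Its signal was 5.33, 2.14 and 2.59 in C4, C3 and B1, against 1.5, 0.883 and 1.34 in H2, H3 and I2. Every deficient culture read above every wild-type culture, and C4 stood well above the other deficient cultures. Means were 3.35 ± 1.72 in deficient and 1.24 ± 0.319 in wild-type cells (SD, n = 3 each). The rise was 2.56-fold, with a log2 difference of 1.35 ± 0.34 (SE) and a limma adjusted p of 0.0472. The call was lost with any array left out, the log2 difference being 0.96 without C4 (adjusted p = 0.103) and 1.13 without H3 (adjusted p = 0.0702). Background correction by normexp gave 0.59 (adjusted p = 0.0966), the smallest value among the alternatives. In H2, H3 and I2 the E2f2 spots were only 1.937, 1.58 and 2.096 times the local background. With the floor doubled to 1.14, above the H3 reading, the log2 difference was 1.23 (limma adjusted p = 0.176). In such bulk cultures a larger share of dividing cells and more RNA per cell cannot be told apart.

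E2f1, the activator that also can induce apoptosis genes, was higher on average but overlapped between genotypes. Its signal was 7.26, 6.43 and 5 in C4, C3 and B1, against 3.34, 5.56 and 5.09 in H2, H3 and I2. The low wild-type value was that of H2 alone, while B1 lay below both H3 and I2. The log2 difference was 0.43 ± 0.23 (limma adjusted p = 0.266), with a 95% interval from -0.08 to 0.95. Without H2 it was 0.21. It was 0.58 without H3 (limma adjusted p = 0.148) and 0.58 without B1 (limma adjusted p = 0.237).

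E2f3 encodes the third activator, in long and short forms that the probe is not annotated to separate. Its signal was 10.2, 8.29 and 8.95 in C4, C3 and B1, against 12.7, 8.41 and 10.7 in H2, H3 and I2. The genotypes overlapped, with the highest readings in wild-type cultures H2 and I2. The log2 difference was -0.20 ± 0.19 (limma adjusted p = 0.551, 95% interval -0.62 to 0.23), and -0.35 without H3.

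Among the repressors, limma called 0 of 5, and the atypical repressor gene E2f7 was the 1 with an unadjusted p under 0.05. The methods' t-test likewise gave E2f7 at an unadjusted p of 0.0459 and called 0 after adjustment. E2f7 read 4.12, 2.46 and 2.92 in C4, C3 and B1, against 1.97, 2.13 and 1.85 in H2, H3 and I2. The wild-type cultures lay close together and all below the deficient ones, among which C4 was again the highest. The log2 difference was 0.65 ± 0.20 (limma adjusted p = 0.0879, 95% interval 0.19 to 1.11). It was 0.44 without C4 and 0.7 without H3.

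E2f8, the partner and close relative of E2f7, read 5.27, 3.57 and 4.1 in C4, C3 and B1, against 2.91, 3.96 and 3.40 in H2, H3 and I2. The order of the cultures within the deficient genotype was that of E2f7, but H3 lay above C3 and the genotypes overlapped. The log2 difference was 0.33 ± 0.20 (limma adjusted p = 0.325, 95% interval -0.12 to 0.77). It was 0.17 without C4 and 0.44 without H3.

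With all 6 arrays, the repressors that bind pocket proteins or Polycomb complexes had the smallest differences of their class. For E2f4 this place depended on C4. Without C4 its log2 difference was 0.41 (limma adjusted p = 0.19), above E2f8 at 0.17 and near E2f7 at 0.44. E2f4, the main E2F of resting cells, read 8.57, 11.6 and 12.2 in C4, C3 and B1, against 8.82, 9.99 and 8.23 in H2, H3 and I2. C4, which was highest for the atypical repressors, was the lowest deficient culture for E2f4. Its log2 difference was 0.25 ± 0.18 (limma adjusted p = 0.421, 95% interval -0.16 to 0.66). E2f5, which acts with the pocket protein p130, spanned 7.26 to 7.59 in deficient and 6.5 to 8.65 in wild-type cultures. All deficient readings lay inside the wild-type range, with a log2 difference of -0.02 ± 0.16 (limma adjusted p = 0.944, 95% interval -0.39 to 0.34). E2f6 spanned 15.5 to 17.2 in deficient and 13.2 to 15.6 in wild-type cultures, with a log2 difference of 0.15 ± 0.15 (limma adjusted p = 0.566, 95% interval -0.19 to 0.49).

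The median log2 difference was 0.43 over the 3 activators and 0.25 over the 5 repressors, a description with no test. The activators ran from -0.20 to 1.35 and the repressors from -0.02 to 0.65, so the spread within each class was wider than the gap between the medians. By sign, 2 of 3 activators and 4 of 5 repressors were higher in deficient cells, beside 51.9% of all tested probes. The repressor median was 0.14 after quantile normalization.

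**Figure D2:**
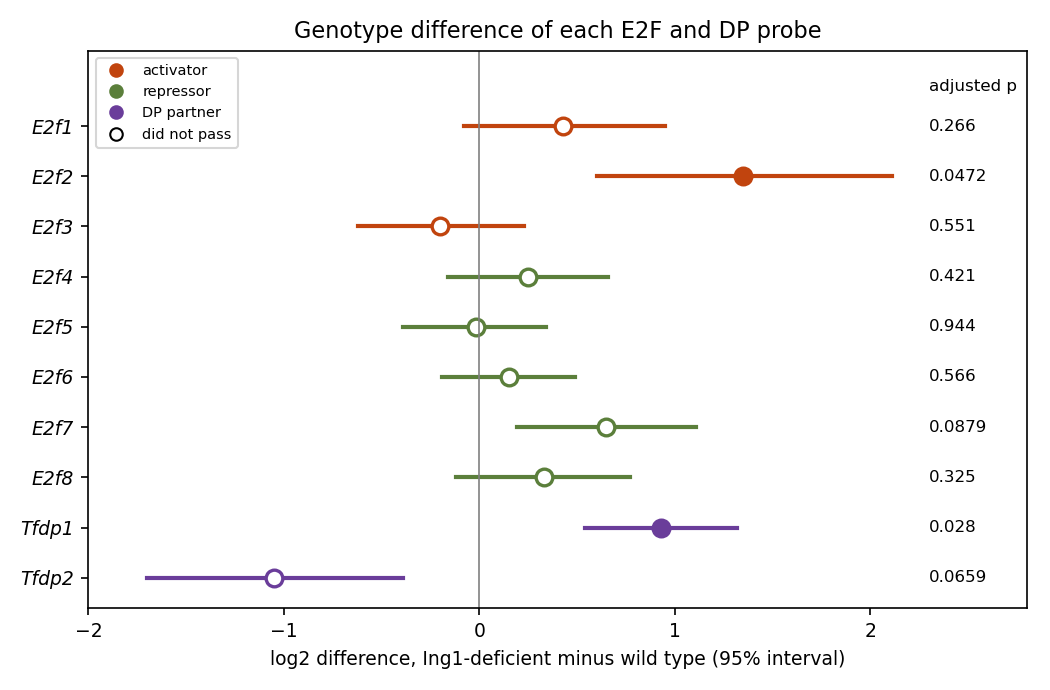
Log2 difference (Ing1-deficient minus wild type) of each member with its 95% interval, coloured by class, with filled points for an adjusted p under 0.05 and the adjusted p at the right. Tfdp1 and E2f2 lie above 0 with filled points, and Tfdp2 lies below 0 with an interval from -1.7 to -0.39 that passes only before adjustment.

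The DP partner genes differed between genotypes in opposite directions, Tfdp1 past the threshold and Tfdp2 not. Tfdp1, which encodes DP1, the common dimer partner of E2F1 to E2F6, read 11.1, 10.9 and 9.36 in C4, C3 and B1, against 4.52, 6.14 and 5.88 in H2, H3 and I2. The lowest deficient culture stood above the highest wild-type culture by more than the spread within either genotype. Tfdp1 rose 1.91-fold, with group means of 10.4 ± 0.949 in deficient and 5.51 ± 0.869 in wild-type cells (SD, n = 3 each). The log2 difference was 0.93 ± 0.17 with a limma adjusted p of 0.028, and 1.55% of tested probes had a lower p. It was 0.88 without C4 (adjusted p = 0.085) and kept its sign and a size of 0.79 to 1.01 with each array left out. The call held without H3 and was lost with each of the other 5 arrays left out.

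Tfdp2, which encodes the related partner DP2, had the opposite sign. It read 2.73, 2.31 and 3.22 in C4, C3 and B1, against 8.06, 3.47 and 6.38 in H2, H3 and I2. Every deficient culture lay below every wild-type culture, but H3 was close to B1. The group means were 2.75 ± 0.457 in deficient and 5.97 ± 2.32 in wild-type cells. The log2 difference was -1.05 ± 0.29 with a limma adjusted p of 0.0659, and only 0.914% of tested probes had a lower difference. Without H3 it was -1.39 and passed (adjusted p = 0.00672).

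The log2 value of Tfdp1 minus that of Tfdp2 on the same array was 2.03, 2.23 and 1.54 in C4, C3 and B1, against -0.83, 0.82 and -0.12 in H2, H3 and I2. All deficient cultures lay above all wild-type cultures, of which H3 came nearest. The means were 1.93 ± 0.36 in deficient and -0.04 ± 0.83 in wild-type cells (SD, n = 3 each), a gap of 1.98. The pair was set side by side after its values were seen, so the gap is a description with no test.

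**Figure D3:**
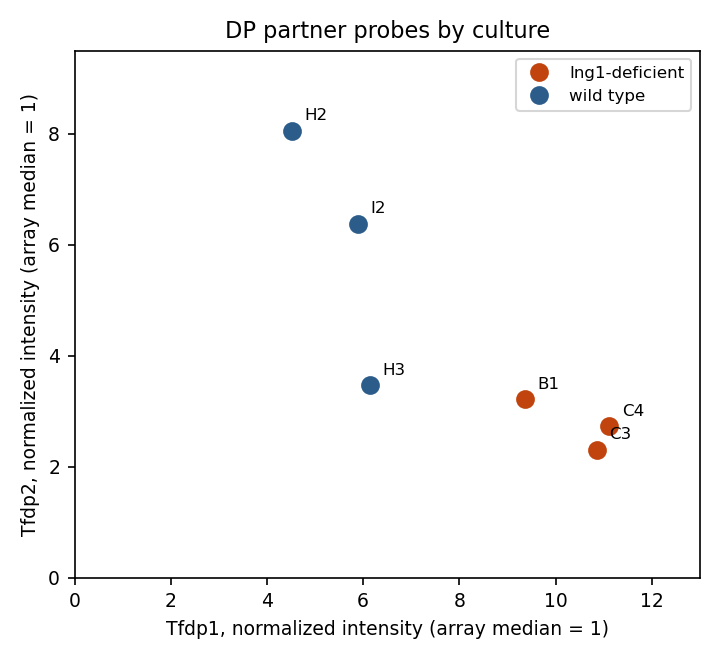
Tfdp1 against Tfdp2 in each culture, both as normalized intensity (array median = 1). The 3 deficient cultures (red) hold Tfdp1 at 9.36 to 11.1 with Tfdp2 at 2.31 to 3.22, and the wild-type cultures (blue) hold Tfdp1 at 4.52 to 6.14 with Tfdp2 spread from 3.47 to 8.06.

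By culture, 5 of the 8 E2F genes had their highest reading of all 6 arrays in C4, namely E2f1, E2f2, E2f6, E2f7 and E2f8. On the log2 scale C4 lay 1.46 above the mean of the 6 arrays for E2f2, 0.74 for E2f7, 0.47 for E2f8 and 0.45 for E2f1. Among wild-type cultures H2 had the lowest E2f1, E2f8 and Tfdp1 and the highest E2f3, E2f5 and Tfdp2. H3 had the lowest E2f2 of all arrays but readings of E2f1 and E2f8 near those of deficient cultures.

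**Figure D4:**
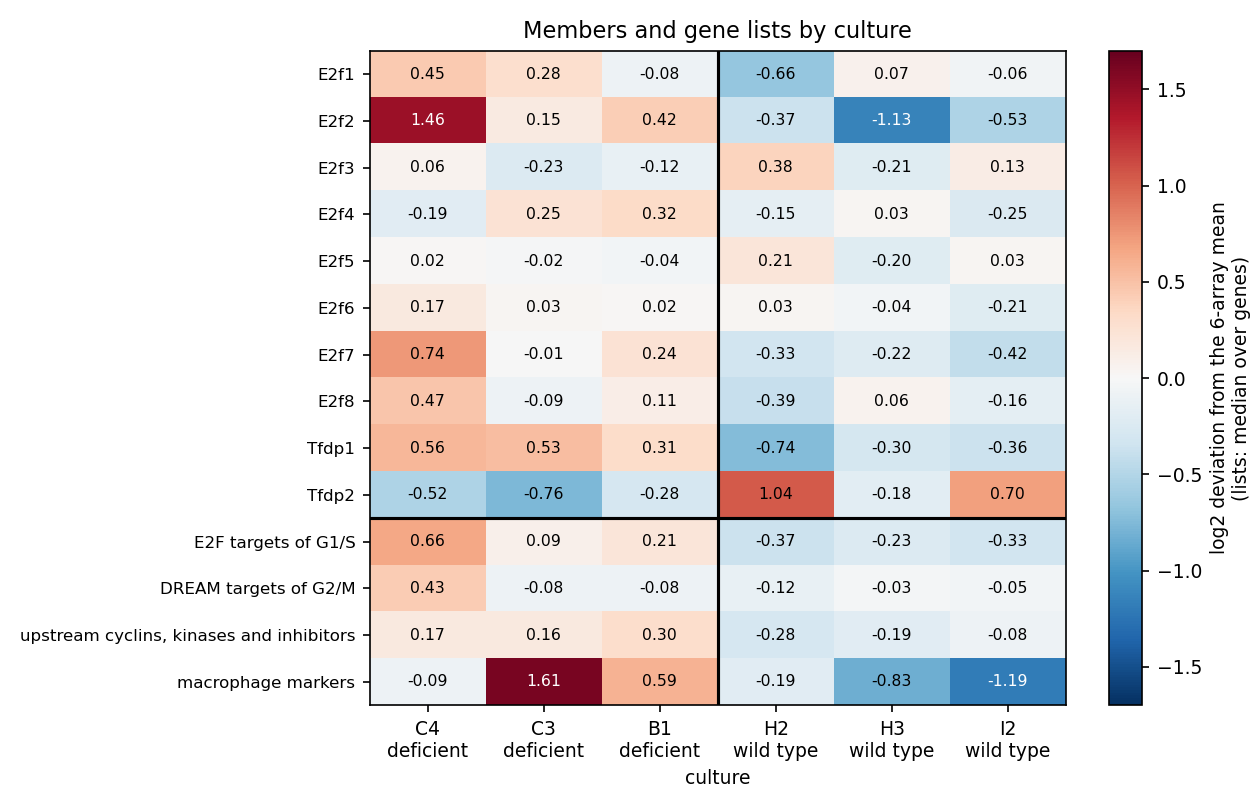
Log2 deviation of each member from its mean over the 6 arrays, by culture, with the median deviation of 4 gene lists below the line. C4 is highest for E2f2 (1.46) and for the E2F targets of G1/S (0.66), while the macrophage markers are highest in C3 (1.61).

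The pocket proteins hold E2Fs inactive, and their probes did not pass. Rb1, the retinoblastoma gene, read 2.02, 2.69 and 2.97 in C4, C3 and B1, against 3.48, 3.33 and 3.89 in H2, H3 and I2. All deficient readings were below all wild-type readings, lowest in C4, with a log2 difference of -0.49 ± 0.18 (limma adjusted p = 0.128). Rbl2, the p130 gene, gave -0.22 ± 0.22 (limma adjusted p = 0.577). The probe of Rbl1, the p107 gene and a known E2F target, was flagged low on all 6 arrays and was not tested. The MuvB core pairs with pocket proteins and E2F4 to silence cell cycle genes, and with B-Myb to activate them. Of the 6 genes listed for the core and B-Myb limma called 0. An unadjusted p under 0.05 was found for 2 by limma and 2 by the methods' t-test, against 26.2% of all tested probes by limma. The genes with the lowest p were Mybl2, the B-Myb gene (0.51 ± 0.16, limma adjusted p = 0.0797), and Lin9 (0.47 ± 0.17, adjusted p = 0.126). The Mybl2 spot in I2 had no good flag, so Mybl2 was tested through the deficient cultures alone.

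Of 13 partners of E2F6 in its Polycomb-type complex, only the histone deacetylase gene Hdac1 rose (1.40 ± 0.16, limma adjusted p = 0.00935). This is 1 call of 13, beside 4.94% of all tested probes called higher. The list median was 0.08. Of 7 germline genes known as E2F6 targets, 2 could be tested and limma called 0, also before adjustment and by the methods' t-test. These were the nucleotide carrier gene Slc25a31 (-0.30 ± 0.17) and the meiotic cohesin gene Smc1b (-0.35 ± 0.22). For 6 tested regulators of E2F protein turnover limma gave 0 calls. The ubiquitin ligase gene Mdm2 had the 1 unadjusted p under 0.05 (-0.65 ± 0.24), with its spot in C3 flagged low. The cyclin gene Ccnf gave 0.34 ± 0.18. The methods' t-test called 0 of them before adjustment.

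Upstream of the pocket proteins, 3 of 14 cyclin, kinase and inhibitor genes rose, and Cdk6 passed with probes of opposite sign. Of all tested probes 4.94% were called higher. The list median, with Cdk6 taken at its brightest probe, was 0.46, and 0.37 over the 12 genes with a good flag on all 6 arrays. An unadjusted limma p under 0.05 was found for 7 genes higher and 2 lower, against 17% and 9.21% of all tested probes. The list pools cyclins and kinases with kinase inhibitors, which went both ways, none past the threshold. Cdkn1a (-0.57), Cdkn2d (-0.46) and Cdkn1c (-0.31) were lower, and Cdkn2a (0.56), Cdkn2c (0.47) and Cdkn2b (0.26) higher. The S-phase kinase gene Cdk2 read 6.07, 5.72 and 5.63 in C4, C3 and B1, against 3.61, 3.89 and 3.35 in H2, H3 and I2. Its log2 difference was 0.68 ± 0.15 (limma adjusted p = 0.0338), and its cyclin gene Ccne1 rose by 0.70 ± 0.15. Both had narrow ranges within each genotype, and Ccne1 is counted again among the G1/S targets below. Ccnd1, whose product starts phosphorylation of the retinoblastoma protein, rose by 1.02 ± 0.24, with its spot in H2 flagged low, so that it was tested through the deficient cultures alone. Cdk6 was higher by 1 ± 0.18 with its brightest probe (limma adjusted p = 0.0271). Another probe gave 0.46, and the last gave -1.19 and was also past the threshold (limma adjusted p = 0.037), so Cdk6 has no settled direction.

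Among E2F targets of the G1/S transition, 10 of 29 tested genes rose, 0 fell and 19 missed the threshold, with a list median of 0.62. Over all tested probes limma called 4.94% higher and 1.63% lower. By sign 27 of the 29 were higher and 2 lower, beside 51.9% of all tested probes higher by sign. Of the 29, 5 were tested through the good flags of the deficient cultures alone and 3 through those of the wild type alone, and Cdc6 and Pole belong to those 5. Of the 21 with a good flag on all 6 arrays 7 rose and 0 fell, with 19 higher and 2 lower by sign and a median of 0.66. The replication genes Cdc6 (1.47 ± 0.29), Fen1 (1.36 ± 0.26), Pole (1.09 ± 0.22) and Mcm3 (1.09 ± 0.23) had the lowest p-values. Cdc6, which loads the helicase, read 2.98, 1.49 and 1.80 in C4, C3 and B1, against 0.557, 1 and 0.661 in H2, H3 and I2, where the H2 spot was flagged low and lay under the floor of 0.57. The order of the deficient cultures was that of E2f2, E2f7 and E2f8. The median deviation of the list from its 6-array means was 0.66, 0.09 and 0.21 in C4, C3 and B1, against -0.37, -0.23 and -0.33 in H2, H3 and I2, so that C4 stood apart on the high side. With an array left out limma called 0 of the 29 genes without C4, B1, H2 or I2, 3 without C3 and 12 without H3. Over all probes the share called was 0.266% without C4, 0.0255% without B1, 0.123% without H2, 0.0868% without I2, 1.94% without C3 and 13.9% without H3. An unadjusted p under 0.05 was found for 16 to 23 of the 29 genes in these fits and for 21 with all arrays. Such a p was found for 26.2% of all tested probes with all arrays, and for 3602 to 6017 probes with an array left out. The list median was 0.43 without C4 and 0.57 to 0.69 without any other array.

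The same repressor complex silences genes of G2/M in resting cells. Limma gave 0 calls among 21 tested, and the median was 0.15. An unadjusted p under 0.05 was found for 2 by limma and 1 by the methods' t-test, against 26.2% of all tested probes by limma. The kinesin gene Kif11 gave 0.51 ± 0.17 (limma adjusted p = 0.108) and 0.38 with its other probe, and the mitotic kinase gene Ttk 0.57 ± 0.22. The same median deviation was 0.43 in C4 and between -0.12 and -0.03 in the other 5 cultures. The difference between the lists was not tested. Among 3 tested apoptosis genes known as E2F1 targets limma gave 0 calls. The cell death gene Bcl2l11 had an unadjusted limma p of 0.0277 (-0.87 ± 0.33), Bbc3 gave -0.46 ± 0.21, and the methods' t-test gave 0 before adjustment. Of 5 tested genes known as targets of E2F7 and E2F8, the member E2f1 among them, 2 rose, Ccne1 and Cdc6, both counted above. The list does not separate repressed from activated targets. The share called higher over all tested probes was 4.94%. Vegfa, the vascular growth factor gene, named here after its values were seen, gave -0.77 ± 0.23 with all deficient readings below all wild-type readings (unadjusted p = 0.00763, limma adjusted p = 0.0736).

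The E2F consensus forms occurred in the windows of 13 of 26 G1/S genes that had a window. The share was 50% both among the 8 that rose and among the 18 that did not pass, and 1 of 15 G2/M genes held a form.

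Other cell types could contribute RNA to a culture. Of 8 tested macrophage markers 3 were called higher in deficient cells, C1qa, C1qb and Mrc1, beside 4.94% of all tested probes. Their median log2 difference over the 8 markers was 1.35. Mrc1 was tested through the deficient cultures alone, its wild-type mean of 0.512 lying under the floor, and over the 7 markers with a good flag on all 6 arrays 2 were called and the median was 1.2. The summed signal of the 8 markers was 53.4, 168 and 87.5 in C4, C3 and B1, against 58.5, 36.7 and 24.6 in H2, H3 and I2. The leukocyte marker Ptprc was flagged low on all 6 arrays, and Adgre1 was read as good in 2 deficient cultures and none of the wild type. The marker sum was highest in C3. Of the deficient cultures, C3 was lowest for E2f2, E2f7, E2f8 and the G1/S list, and B1 was lowest for E2f1 and Tfdp1. Skeletal muscle markers, with 0 of 5 called by limma and 1 at an unadjusted p under 0.05, summed to 52.4, 22.2 and 34 in C4, C3 and B1, against 26.6, 20.6 and 22.5 in H2, H3 and I2, so their sum was highest in C4. Of 2 tested markers each of red blood cells, endothelium and epithelium limma called 0, also before adjustment. The part of these cell types in the results was not tested.

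Genes with the pattern most like E2f2 over the 6 arrays were Septin9, Rrp9, G3bp1, Camk4 and Aff3, with Pearson r of 0.995 to 0.997. For E2f7 they were Brca1 (r = 0.999), the DNA repair gene, then Abhd16a, Zfp607b, Ccp110 and Slc27a4. None of these 10 genes passed the genotype test. With 6 arrays and the high reading of C4 shared by all of them, these values are a description.

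**Figure D5:**
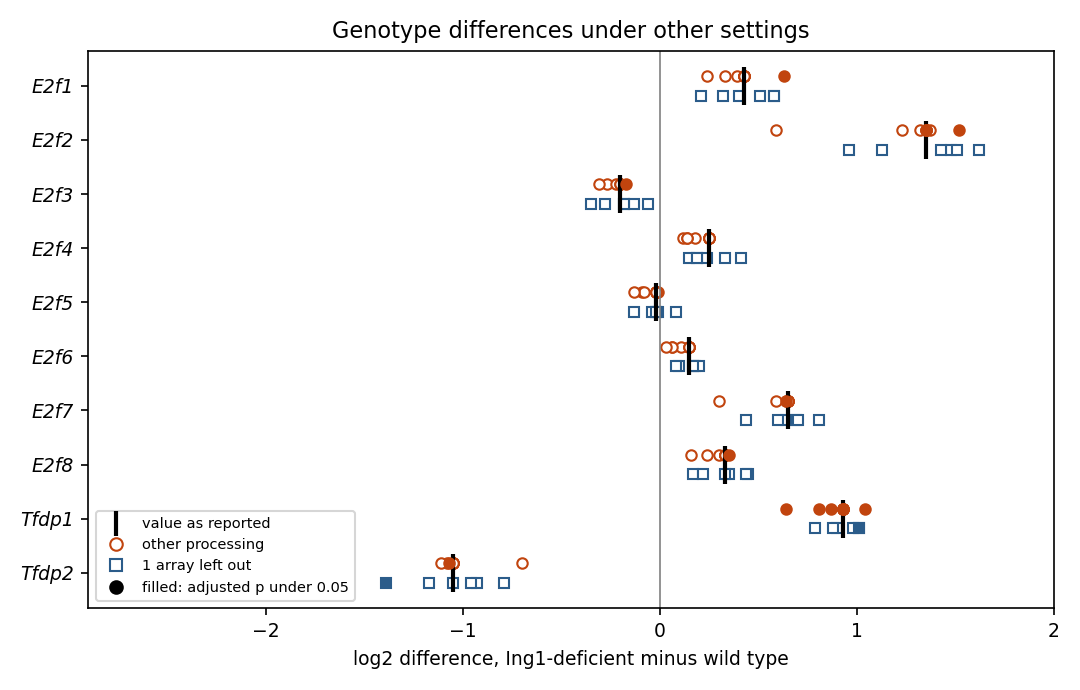
Log2 difference (Ing1-deficient minus wild type) of each member as reported (black bar), under 10 other processing settings (red circles) and with each array left out (blue squares), filled where the adjusted p is under 0.05. E2f5 alone has values on both sides of 0, and Tfdp1 is the member with the most filled points, 8 of 16. The series value table, 1 of the processing settings, holds the same values, so its points repeat the reported fit by construction.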

How the data were processed

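Total RNA of 6 fibroblast cultures was measured on 1-colour CodeLink arrays. Per the labels and the file headers, slides went through a GenePix scanner and version 4.1.0.29054 of CodeLink Expression Analysis. In the deposited intensity, the authors subtracted the median of the local background from each spot's mean and scaled by the array's median transcript probe. A recomputation returned that median as divisor within 1% for 100% of probes. The deposited series value table held the same intensity for 217362 of 217362 spots. Masked spots were treated as missing and 1260 control spots left out. The labels' Student test is called the methods' t-test. Good flags covered 55.5% to 62.1% of transcript probes per array, and the number of arrays limits the precision.

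Values were log2 of the intensity with a floor of 0.57, the median over arrays of the 1st percentile among good spots. A probe was tested when either genotype had 3 good flags, 19575 in all, using limma 3.58.1 in R 4.3.3. Its two-sided p-values were adjusted over these probes by Benjamini-Hochberg with a threshold of 0.05. Intervals are 95% from the fit. The fit was tested on simulated data. Names came from the platform's annotation, 21487 of 21615 probes with 1 symbol being matched to RefSeq by gene ID. In lists, a gene is its tested probe of highest mean. Named were all members, per list up to 4 genes past the threshold or the 2 of lowest p, every pocket protein, and the 5 genes most correlated with the activator and the repressor of largest difference. Members and lists were chosen with earlier results of these data known. The genome build of the array annotation is not given in the sources used here. Alternatives were 10 processing settings, each array left out, and the methods' t-test (statmod 1.5.0 for the random block). No slide or scan batch held over 1 array.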

Additional observations from a re-analysis of the deposited data

How the results depend on the processing

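No paired analysis was possible because the genotypes share 1 replicate number, 3. The leading letters B and C occur only in deficient cultures, and H and I only in wild-type cultures. Whatever the letter marks therefore cannot be told apart from the genotype. Of 180 comparisons of a member's difference with another setting, 150 kept the direction and the side of the threshold. A call was lost in 22, gained in 7, and 1 changed sign, E2f5, which ran from -0.13 to 0.08 with an array left out. Most comparisons were of members with no call to lose, and all 22 losses were of E2f2 and Tfdp1. Apart from the t-tests, E2f2 passed in 4 of 16 settings and Tfdp1 in 8 of 16. The gained calls include E2f7 by the methods' t-test before adjustment, a laxer threshold. Of the 18 settings, 1 was the series value table, which held the same values, so its comparisons were unchanged by construction. Besides the 2 members called by limma, there was 1 call, Tfdp1, after quantile normalization, cyclic loess and normexp correction, whose offset of 50 shrinks differences by construction. There were 0 calls with a floor of 0.01, a floor of 1.14 (above the E2f2 signal in H3) and no filter on flags, with 4 members at an unadjusted p under 0.05 each time. Such a p was found for 4891 and 4216 of 19575 probes with the lower and the higher floor, and for 4644 of 34862 with no filter. The methods' t-test gave E2f2, E2f7 and Tfdp1 before adjustment (3 members) and 0 after it. With an array left out the count was 0 to 2, with 4 or 5 members at an unadjusted p under 0.05. Among all probes 3602 to 6017 had such a p in these fits, against 5137 of 19575 with all arrays. The culture name's leading letter as a random block gave 7 calls, with an estimated correlation of -0.886 within letters, which lowers the standard errors. It gave 12901 calls over all probes, against 1286 in the fit reported. The count over all probes was 749 after cyclic loess, 739 after quantile normalization, 575 with normexp, 275 and 191 with the lower and the higher floor, 20 with no filter on flags and 5 to 2726 with an array left out. The methods' t-test gave 3927 before and 7 after adjustment. The activator median was 0.21 to 0.58 with an array left out. The repressor median was 0.12 with the letter block, 0.14 with normexp and 0.14 after quantile normalization, and 0.17 to 0.33 with an array left out. The count of G1/S targets, an alternative chosen after seeing the data, was 0 to 12 with an array left out, with medians of 0.43 to 0.69. Where no construction is named, the cause was not tested.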
